A study of Mus musculus with 18 samples.

Results

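The 10 genes *Apoa1*, *Apoa2*, *Apoa4*, *Apoa5*, *Apob*, *Apoc1*, *Apoc2*, *Apoc3*, *Apoe* and *Apom* encode apolipoproteins. They were picked by name from the 21899 genes listed in the expression values. Wild-type male C57BL/6 mice aged 18 weeks had been kept for 12 weeks on a high-salt diet with saline to drink (HSD) or on normal chow with tap water (CON), and whole liver, epididymal white adipose tissue (eWAT) and quadriceps muscle were sequenced after depletion of rRNA. Each of the 3 tissues had 3 CON and 3 HSD libraries, 18 in all, and the mice carried no engineered allele. Levels are given in FPKM, a fragment count corrected for gene length and library size. Levels of different genes can be set side by side, except where a gene shares many exon bases with another. Labels name some animals in several tissues, CON and HSD animals are always different, and the p-values measure the spread between these libraries.

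Apolipoproteins are the protein part of the particles that carry triglyceride and cholesterol in blood. Hepatocytes make most of them and secrete them into plasma, and enterocytes are the other main source of the large structural protein apoB and of apoA-I and apoA-IV. ApoE is an exception, since macrophages, adipocytes and other cells outside the liver also transcribe its gene, and *Apoc1* beside it is transcribed in macrophages too.

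In mouse build mm10 (GRCm38), 7 of the 10 genes lie in 2 clusters. *Apoa1*, *Apoc3*, *Apoa4* and *Apoa5* share 43.3 kb of chromosome 9, from *Apoa1* (ENSMUSG00000032083, chr9:46228580-46230466, plus strand) to *Apoa5* (ENSMUSG00000032079, chr9:46268633-46271919, plus strand), with *Apoc3* (ENSMUSG00000032081, chr9:46232933-46235636, minus strand) and *Apoa4* (ENSMUSG00000032080, chr9:46240696-46243459, plus strand) between them. *Apoc2* (ENSMUSG00000002992, chr7:19671579-19677941, minus strand), *Apoc1* and *Apoe* lie within 27.6 kb of chromosome 7, where *Apoe* (ENSMUSG00000002985, chr7:19696109-19699188, minus strand) is next to *Apoc1* (ENSMUSG00000040564, chr7:19689481-19692660, minus strand). *Apoa2* (ENSMUSG00000005681, chr1:171225054-171226379, plus strand), *Apob* (ENSMUSG00000020609, chr12:7977648-8016835, plus strand) and *Apom* (ENSMUSG00000024391, chr17:35128997-35132050, minus strand) stand alone. The values of *Apoc2* are uncertain, because 646 of its 813 exon bases are shared on the same strand with *Gm44805*, which is listed at 0 in all 18 libraries. Antisense genes cover 1266 of the 1815 exon bases of *Apoa4* and 524 of the 2522 of *Apoa5*. The strand setting of the counting is not stated for these values, so reads of those stretches could come from either strand.

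Sequence upstream of the start is shown for 3 genes as examples, *Apoa2* and *Apob* with high levels in liver alone and *Apoe* with high levels in liver and fat. The sequences are from RefSeq on GRCm38.p6, which gave a window for 8 of the 10 genes. Each is written 5′ to 3′ on the strand of its gene, and capitals mark the motifs that were found. The stretch of *Apoa2* is chr1:171224804-171225053, that of *Apob* is chr12:7977427-7977626 and that of *Apoe* is chr7:19699189-19699438 on the minus strand. The stretch of *Apob* ends 51 bases before the RefSeq start of its window, which lies downstream of the gene start given above.
Apoa2: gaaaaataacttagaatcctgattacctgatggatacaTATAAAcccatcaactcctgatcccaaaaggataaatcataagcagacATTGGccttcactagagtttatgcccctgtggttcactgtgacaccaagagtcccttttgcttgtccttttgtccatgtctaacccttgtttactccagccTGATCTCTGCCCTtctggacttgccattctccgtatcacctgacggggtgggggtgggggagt
Apob: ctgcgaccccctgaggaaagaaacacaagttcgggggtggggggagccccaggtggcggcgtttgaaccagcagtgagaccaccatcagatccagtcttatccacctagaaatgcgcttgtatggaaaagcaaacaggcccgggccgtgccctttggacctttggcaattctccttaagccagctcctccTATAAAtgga
Apoe: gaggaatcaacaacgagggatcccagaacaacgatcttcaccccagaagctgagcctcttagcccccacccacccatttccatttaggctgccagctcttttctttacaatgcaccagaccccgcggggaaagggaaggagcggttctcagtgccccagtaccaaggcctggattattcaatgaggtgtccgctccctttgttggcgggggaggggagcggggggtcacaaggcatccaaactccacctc

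A total of 4 motifs were searched on both strands of the 250 bases before the start, and TATAAA, the TATA box, occurred in 12.4% of 32851 windows of all genes. It lay at -60 to -55 in *Apob* and at -212 to -207 in *Apoa2*, counted back from the RefSeq start of the window. For *Apob* the gene start given above is upstream of that start, so the motif lies nearer to the gene start than these numbers. The direct repeat AGGNCA, any base and then AGNNCA, of the type read by nuclear receptors such as HNF4, was in 0.779% of all windows and lay on the other strand at -63 to -51 in *Apoa2*. The CCAAT box was in 33.8% of all windows and lay on the other strand at -164 to -160 in *Apoa2*. GTTAAT, any base and then ATTAAC, the palindrome of HNF1, was in 0.00913% of all windows and in none of the genes. The window shown for *Apoe* held none of the 4, while another window of *Apoe*, with a start further into the gene, held TATAAA at -96 to -91 and on the other strand at -100 to -95. In genes not shown, *Apoc2* held the direct repeat at -122 to -110. *Apoa5* held TATAAA at -31 to -26 in 1 window, and at -56 to -51 in the window counted from the gene start given above. These matches describe letters and not binding.

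The libraries held 7628067 to 16637482 fragments on listed genes. Each tissue carried its own defining markers, with summed adipocyte markers of 7803 to 25057 FPKM in eWAT and summed skeletal muscle markers of 67223 to 82625 FPKM in muscle. A few libraries stood apart. In liver, CON replicate 1 had 60.8% of its fragments on mitochondrially encoded genes, and CON replicate 2 had 5378 FPKM of skeletal muscle markers against 2.75 to 7.01 in the other liver libraries. In eWAT, HSD replicate 2 had 26025 FPKM of epididymal epithelium markers against 1.24 to 14.8 in the other libraries and the lowest adipocyte sum, and HSD replicates 1 and 2 had 649 and 320 FPKM of male germ cell markers. Blood cell markers summed to 5667 FPKM in eWAT CON replicate 1 and 5626 FPKM in liver CON replicate 2, against 842 FPKM or less in the other libraries of these tissues. The main results are given with and without the libraries they turn on.

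**Figure D1:**
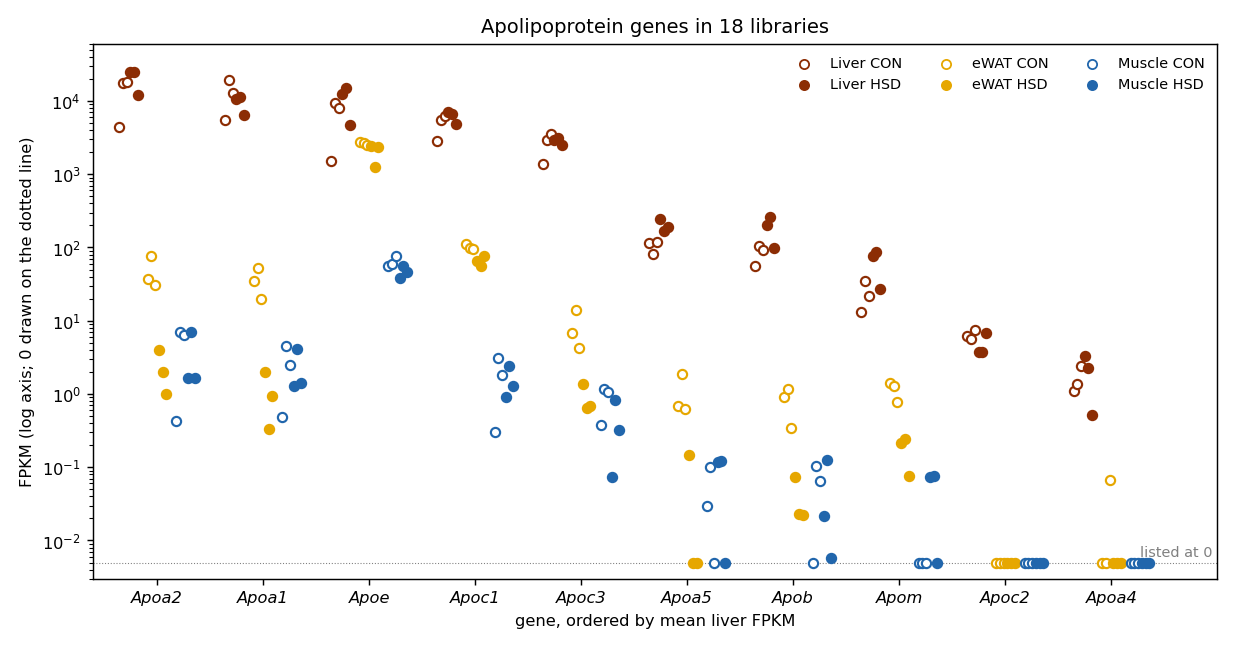
FPKM of the 10 apolipoprotein genes in each of the 18 libraries, on a log axis, by tissue and diet. *Apoe* is the only one of the 10 above 113 FPKM in eWAT, and the eWAT points of *Apoa1* and *Apoa2* fall from 19.6 or more in CON to 3.96 or less in HSD.

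In liver, 5 of the 10 genes were among the 22 highest of all genes. *Apoa2*, a structural protein of HDL, had the highest mean over the 6 libraries (16923 FPKM), followed by *Apoa1*, the main protein of HDL (10955 FPKM), *Apoe*, a ligand of lipoprotein receptors (8505 FPKM), and *Apoc1* (5509.9 FPKM). Each of these exceeded the next in 4 of 6 libraries only, so their order was within the spread between libraries. *Apoc1* exceeded *Apoc3*, an inhibitor of triglyceride clearance (2737.5 FPKM), in 6 of 6 libraries. *Apoa5*, an activator of triglyceride lipolysis (154 FPKM), and *Apob*, the structural protein of VLDL (136 FPKM), came next and were not separated, with *Apoa5* above *Apob* in 4 of 6 libraries. *Apom*, the HDL protein that carries sphingosine-1-phosphate (43.3 FPKM), *Apoc2*, the cofactor of lipoprotein lipase (5.599 FPKM), and *Apoa4* (1.82 FPKM) followed, and the ranges of these 3 did not overlap. The places of *Apoc2* and *Apoa4* are uncertain, because most of their exon bases are shared with other genes. Together the 10 genes took 1.70% to 7.13% of the fragments of a liver library.

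In eWAT the order was another. *Apoe* was the 10th highest of all genes at 2334 FPKM, above *Apoc1* in 6 of 6 libraries, and *Apoc1* was at 84.3 FPKM. The means of the next genes differed between the diets. *Apoa2*, *Apoa1* and *Apoc3* were at 48.4, 35.98 and 8.43 FPKM in CON and at 2.31, 1.09 and 0.898 FPKM in HSD. *Apom*, *Apoa5* and *Apob* were at 1.16, 1.07 and 0.812 FPKM in CON and at 0.178, 0.0484 and 0.0396 FPKM in HSD, and *Apoa5* exceeded *Apob* in 3 of 6 libraries. *Apoa4* had 2 fragments in 1 eWAT library and 0 in the others, and *Apoc2* had 0 in each. In muscle, *Apoe* was at 55.4 FPKM and above every other member in 6 of 6 libraries, *Apoa2*, *Apoa1* and *Apoc1* were at 4.03, 2.37 and 1.63 FPKM, and the other 6 averaged under 1 FPKM. The ratio of *Apoe* to its neighbour *Apoc1* was 0.541 to 2.25 in liver, 22.3 to 37.1 in eWAT and 19.6 to 183 in muscle.

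Tissues were compared within the CON mice by limma on log2(FPKM + 0.5) over all 18 libraries, and a gene was called at a Benjamini-Hochberg adjusted p under 0.05 with an absolute log2 difference of at least 1. This scale understates the change of low genes. Between CON eWAT and CON liver, 9 of the 10 genes were called lower in eWAT, where 7.02% of all 13067 genes tested were called lower. The median log2 difference of the 10 genes was -5.75, against 1.33 over all genes. With median-ratio scaling 20.3% of all genes and with quantile normalization 17.6% were called lower, beside 10 and 9 of the 10 genes. *Apoa1* was 328-fold lower (log2 -8.36, SE 0.62, adjusted p = 7.55e-09) and *Apob* 65.2-fold lower (log2 -6.03, SE 0.32, adjusted p = 2.30e-10). *Apoe* was at 1517, 9505 and 8012 FPKM in the 3 CON liver libraries and at 2775, 2653 and 2523 FPKM in the 3 CON eWAT libraries. The lowest of these is liver CON replicate 1, and the groups overlap. *Apoe* was not called (log2 -0.88, 95% interval -2.13 to 0.37, adjusted p = 0.180). Without liver CON replicate 1 it was called lower in eWAT (log2 -1.72, adjusted p = 0.00205), and with quantile normalization it was higher in eWAT and not called (log2 0.54, adjusted p = 0.333).

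Between CON muscle and CON liver, all 10 genes were called lower in muscle, against 14.5% of all genes, with a median of -7.41 against 0.48. *Apoe* was 76.2-fold lower in muscle (log2 -6.25, SE 0.59). *Apoc2* had 0 fragments in every CON muscle and CON eWAT library, and against the level of 3 fragments in a library it was at least 19.5-fold lower in muscle and 26.4-fold lower in eWAT than in liver. *Apom* and *Apoa4* had 0 fragments in CON muscle and were at least 87.7-fold and 10.98-fold lower there on the same rule. Between CON muscle and CON eWAT, 8 of the 10 genes were called lower in muscle, against 45.4% of all genes (median -0.91 over all genes). The share of all genes called lower there was 19.8% with median-ratio scaling and 19.1% with quantile normalization, with medians of -0.11 and -0.07, and 6 of the 10 genes were called in either. The members' median there was -2.16. *Apoc1* (54.9-fold) and *Apoe* (41.5-fold) had the largest differences of the 10.

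Next, the fat and muscle levels were set against a fixed share of liver RNA. The share of a library was the median, over 50 hepatocyte genes that do not include the 10, of its FPKM as a percent of the mean of the 6 liver libraries. In eWAT the share was 0.609%, 0.963% and 0.372% in the CON libraries and 0.0645%, 0.0328% and 0.0339% in the HSD libraries. The HSD range lay wholly under the CON range, and the mean was 14.5-fold lower on a log scale (exact 2-sided permutation test, p = 0.1, the smallest that 3 against 3 can give). Up to 1 of the 50 hepatocyte genes was at 0 in a CON eWAT library and 4 to 10 in an HSD library. In muscle the share was 0.00336%, 0.0941% and 0.0458% in CON and 0.0152%, 0.0626% and 0.00820% in HSD, and the groups overlapped (exact 2-sided permutation test, p = 0.9). There 22, 2 and 7 of the 50 hepatocyte genes were at 0 in the CON libraries and 13, 5 and 18 in the HSD libraries. By the sum of the 50 genes the share of muscle CON replicate 1 was 0.0262%. The cause of the difference in eWAT was not tested.

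*Apoe* was the member farthest above its liver share. In the eWAT libraries it was 32.4 to 820 times the level that the share of that library would give, and in the muscle libraries 7.49 to 194 times. The value of 194 times was in muscle CON replicate 1, where 22 of the 50 hepatocyte genes were at 0 and the share was 0.00336%. *Apom* was 3.12 to 16.9 times its share in eWAT, on 1 to 23 fragments a library. These were the only members above 2 times the share in all 6 libraries of a tissue, 2 of 10 in eWAT and 1 of 10 in muscle. The same held for 4 of the 50 hepatocyte genes in eWAT (8%) and 5 in muscle (10%), and for 95.1% and 93.9% of all genes with a mean of at least 1 FPKM in liver. *Apoc1* was above 2 times its share in 5 of 6 eWAT libraries, with 1.86 to 4.72 times in CON and 18.5 to 40.6 times in HSD.

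The other members were nearer to the share or under it in most libraries. In eWAT, *Apoa1* was 0.0915 to 0.525 times, *Apoa2* 0.174 to 0.495 times and *Apoc3* 0.413 to 0.778 times the level of the share. *Apob* was 0.476 to 1.11 times and *Apoa5* 0 to 1.46 times, and *Apoa4* was 9.78 times in the 1 library with its 2 fragments. In muscle, *Apoa1* was 0.438 to 1.60 times, *Apoa2* 0.445 to 1.19 times and *Apoc1* 0.591 to 2.88 times the share. The other muscle values spread more, on few fragments and with many hepatocyte genes at 0 in some libraries. *Apoc3* was at 0.177 to 4.04 times on 1 to 14 fragments, *Apoa5* at 0 to 5.77 times on 0 to 4 and *Apom* at 0 to 11.2 times on 0 to 1. The ratio of *Apoa1* to *Apoa2*, which needs no share, was 0.424 to 1.24 in liver, 0.167 to 0.935 in eWAT and 0.389 to 1.16 in muscle, so these ranges overlapped.

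**Figure D2:**
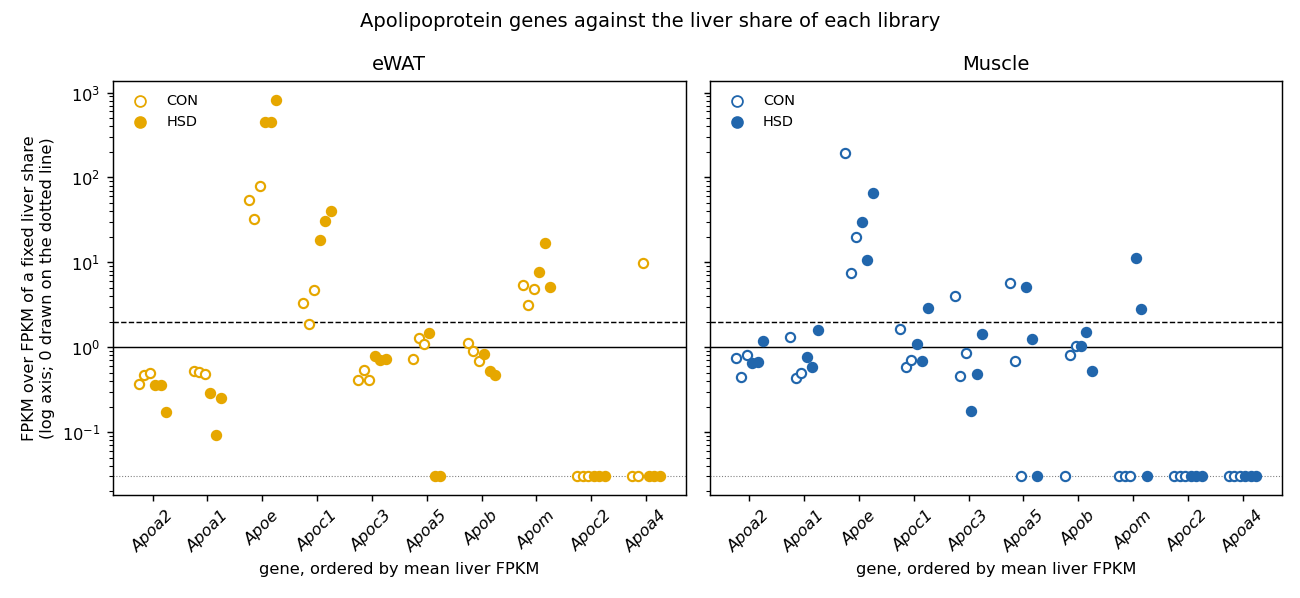
FPKM of each gene divided by the FPKM that the liver share of the same library would give, for the eWAT and muscle libraries on a log axis. *Apoe* lies 32.4 to 820 times above the share in eWAT, *Apoc1* lies higher in HSD than in CON libraries, and *Apoa1*, *Apoa2* and *Apoc3* lie below the share in every eWAT library.

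As a description over the 12 eWAT and muscle libraries, the genes whose levels ran most like each member were searched among 11821 genes by Pearson r of log2(FPKM + 0.5). These libraries differ in tissue and liver share at once, and genes of the Mup, Serpina1 and Ces families share reads with near-identical copies. The closest to *Apoa1* were *Ahsg* (r = 0.984), *Mup3* and *Mup7*, secreted proteins of hepatocytes. The closest to *Apoa2* were *Mup3* (r = 0.982), *Mup20* and *Ttr*, and the closest to *Apoc3* were *Ambp* (r = 0.973), *Serpina1a* and *Serpina1b*. The closest to *Apob* were *Ces1c* (r = 0.979), *Mup11* and *Ces3a*, to *Apoa5* *Ces3a* (r = 0.949), *Ces1c* and *Serpina1d*, and to *Apom* *Gpr27* (r = 0.956), *Fgg* and *Cyp2d9*. *Apoe* and *Apoc1* had other neighbours, *Fut11* (r = 0.998), *4931406C07Rik* and *Cd81* for *Apoe* and *Rasl11a* (r = 0.994), *Pde1a* and *Pnp* for *Apoc1*. No likeness is given for *Apoc2*, which was at 0, or for *Apoa4*, which had 2 fragments.

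In eWAT the HSD mice had lower values of the liver-type apolipoprotein genes. *Apoa1* was at 35.1, 53.2 and 19.6 FPKM in CON and at 2.02, 0.329 and 0.927 FPKM in HSD. *Apoa2* was at 37.5, 76.55 and 31.1 FPKM in CON and at 3.96, 1.97 and 0.996 FPKM in HSD. *Apoc3* was at 6.89, 14.2 and 4.21 FPKM in CON and at 1.37, 0.641 and 0.678 FPKM in HSD. For these 3 genes the lowest CON library was above the highest HSD library, and the same CON library, replicate 2, was highest each time. That library also had the highest liver share.

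Limma over the 6 eWAT libraries gave a log2 difference, HSD minus CON, of -4.55 for *Apoa1* (SE 0.51, 23.5-fold, adjusted p = 0.0830), -4.15 for *Apoa2* (SE 0.50, 17.8-fold, adjusted p = 0.0884) and -2.55 for *Apoc3* (SE 0.45, adjusted p = 0.121). None was called, nor was any of the 13740 genes tested (0%), although the unadjusted p was under 0.05 for 2298. Limma voom on fragments recovered from the FPKM also called 0 genes, with 2158 at an unadjusted p under 0.05. Without HSD replicate 2, the library with epididymal markers, *Apoa1* (log2 -4.16, adjusted p = 0.0212), *Apoa2* (log2 -4.13, adjusted p = 0.0243) and *Apoc3* (log2 -2.43, adjusted p = 0.0422) were called, and so were 160 of the 13245 genes tested (1.21%, and 0.989% in the lower direction). Over the settings tried, the adjusted p of *Apoa1* ranged from 0.00242 to 0.364, that of *Apoa2* from 0.0140 to 0.364 and that of *Apoc3* from 0.00858 to 0.521.

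*Apoa5*, *Apob* and *Apom* had lower values in HSD on few fragments, and none of them was called. *Apoa5* was at 0.692, 1.88 and 0.620 FPKM in CON and at 0.145, 0 and 0 FPKM in HSD. *Apob* was at 0.917, 1.17 and 0.345 FPKM in CON and at 0.0736, 0.0233 and 0.0219 FPKM in HSD, and its mean was too low for the test. *Apom* was at 1.42, 1.30 and 0.771 FPKM in CON, 13 to 23 fragments, and at 0.217, 0.241 and 0.0754 FPKM in HSD, 1 to 3 fragments. The log2 difference was -1.43 for *Apoa5* (adjusted p = 0.201) and -1.28 for *Apom* (adjusted p = 0.155). *Apoa5* and *Apom* passed the filter on the mean through their CON libraries. With no filter, the HSD range lay wholly under the CON range for 8 of the 9 members above 0 in eWAT, and for 10.4% of all 18561 genes above 0.

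*Apoc1* was at 113, 98.7 and 96.5 FPKM in CON (mean 103 ± 8.75, SD, n = 3) and at 65.7, 56.2 and 75.8 FPKM in HSD (65.9 ± 9.82, SD, n = 3). The groups did not overlap, and limma gave a log2 difference of -0.64 (SE 0.15, adjusted p = 0.154). Less the liver share, *Apoc1* was at 79.1, 45.6 and 76.1 FPKM in CON (66.9 ± 18.5, SD, n = 3) and at 62.1, 54.4 and 73.9 FPKM in HSD (63.5 ± 9.86, SD, n = 3). The ranges then overlapped, and limma with the share subtracted from every gene gave a log2 difference of -0.05 (95% interval -0.65 to 0.56, adjusted p = 0.926). With the share taken from the summed hepatocyte genes, an alternative added after the data were seen, the difference was -0.20 (SE 0.20). In CON eWAT, *Apoa1*, *Apoa2* and *Apoc3* were at 0.364 to 0.538 times the level of the median share, and *Apob* at 0.683 to 1.11 times. A single share for all genes may therefore take off too much or too little of *Apoc1*, most of all in CON. How far this moves its difference was not tested.

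*Apoe* was at 2775, 2653 and 2523 FPKM in CON eWAT (mean 2650.5 ± 126, SD, n = 3) and at 2437, 1253 and 2364 FPKM in HSD eWAT (2018 ± 663, SD, n = 3). The low value is HSD replicate 2, which had the epididymal markers and the low adipocyte sum, and the other HSD libraries were just under the CON range. The log2 difference was -0.45 (SE 0.36, 95% interval -1.34 to 0.43, adjusted p = 0.524) and -0.14 without that library. Subtracting the liver share left it at -0.43 (adjusted p = 0.534). The summed level of 13 macrophage markers was 671 to 966 FPKM in CON and 302 to 622 FPKM in HSD, and all 13 were lower in HSD, with a median of -0.80 against 0.08 over all genes. In these bulk samples fewer cells of a type and less RNA per cell cannot be told apart, and the part of macrophages in the level of *Apoe* was not tested.

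**Figure D3:**
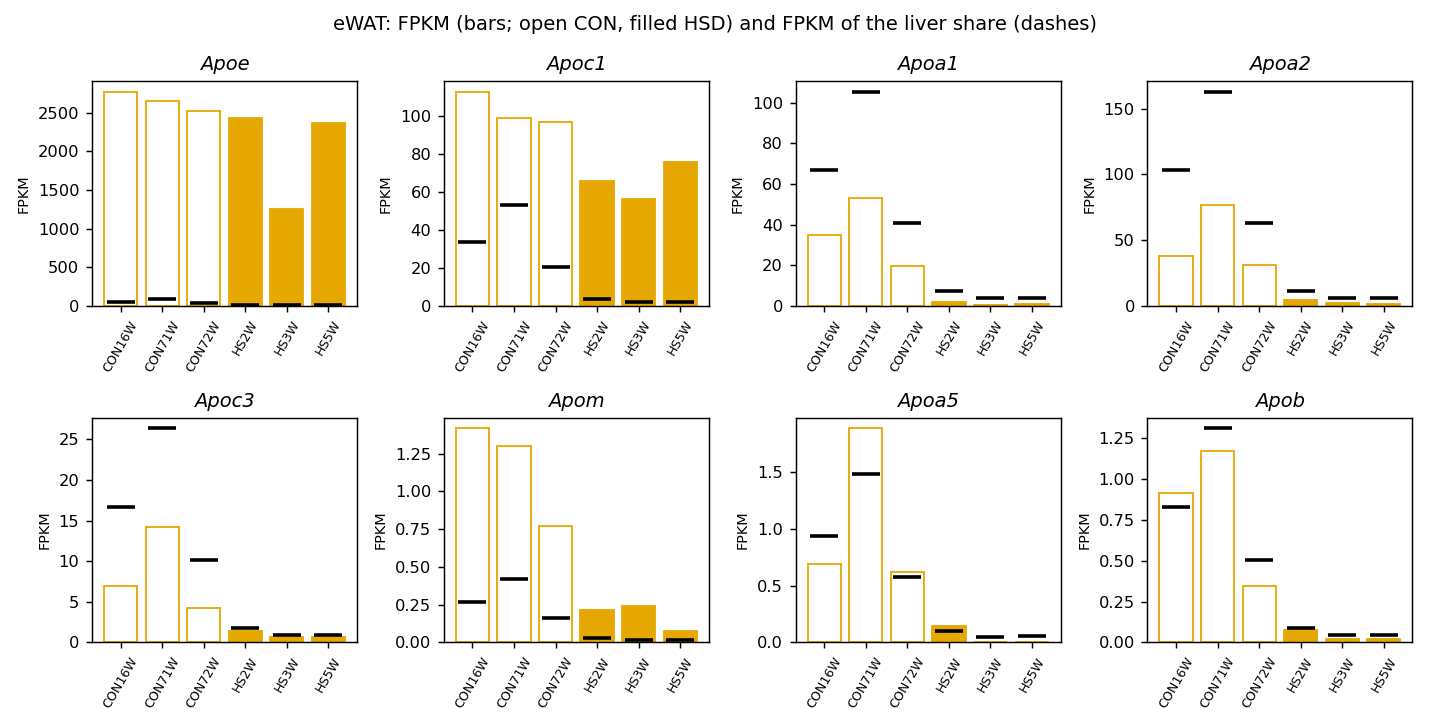
FPKM of 8 genes in the 6 eWAT libraries (bars, from 0) with the level that the liver share of the library would give (dashes). The bars of *Apoa1* and *Apoa2* stay under their dashes in every library, those of *Apoe* and *Apoc1* rise above them, and the *Apoe* bar of HSD replicate 2 is at 1253 FPKM.

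In muscle, *Apoe* was at 55.6, 59.9 and 76.5 FPKM in CON (mean 64.0 ± 11.03, SD, n = 3) and at 38.3, 56.2 and 45.8 FPKM in HSD (46.8 ± 9.0003, SD, n = 3). HSD replicate 2 lay within the CON range. The log2 difference by limma was -0.45 (SE 0.17, 95% interval -0.84 to -0.07, adjusted p = 0.235), and -0.43 (adjusted p = 0.237) less the liver share. Macrophage markers summed to 62.4 to 105 FPKM in CON muscle and 46.3 to 50.3 FPKM in HSD muscle, with 10 of the 11 tested lower and a median of -0.75. Their part in the level of *Apoe* was not tested.

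The next highest muscle genes were *Apoa1* and *Apoa2*, and their diet groups overlapped. *Apoa1* was at 0.488, 4.51 and 2.46 FPKM in CON and at 1.28, 4.05 and 1.44 FPKM in HSD, 8 to 66 fragments a library. *Apoa2* was at 0.422, 7.08 and 6.33 FPKM in CON and at 1.68, 7.03 and 1.65 FPKM in HSD. CON replicate 2 and HSD replicate 2 were highest for both genes, and these libraries also had the highest liver share of their groups. The log2 differences were 0.03 for *Apoa1* and -0.14 for *Apoa2*, with adjusted p of 0.984 and 0.946 by limma, and that of *Apoc3* was -0.62 (adjusted p = 0.388). *Apoc1* was at 0.304 to 3.06 FPKM in CON and 0.909 to 2.38 FPKM in HSD (log2 0.05, SE 0.47). None of the 5 members tested was called, while 0.323% of the 10834 genes tested were. The replicate block left 0 members called and moved the count over all genes from 35 to 54. CON and HSD libraries share only the replicate number, so this block is no pairing of animals. *Apoa5*, *Apob* and *Apom* were at 0 to 4, 0 to 23 and 0 to 1 fragments a library, and *Apoa4* and *Apoc2* at 0 in each, which allows up to 0.148 and 0.330 FPKM by a limit of 3 fragments. These limits cover counting error only.

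**Figure D4:**
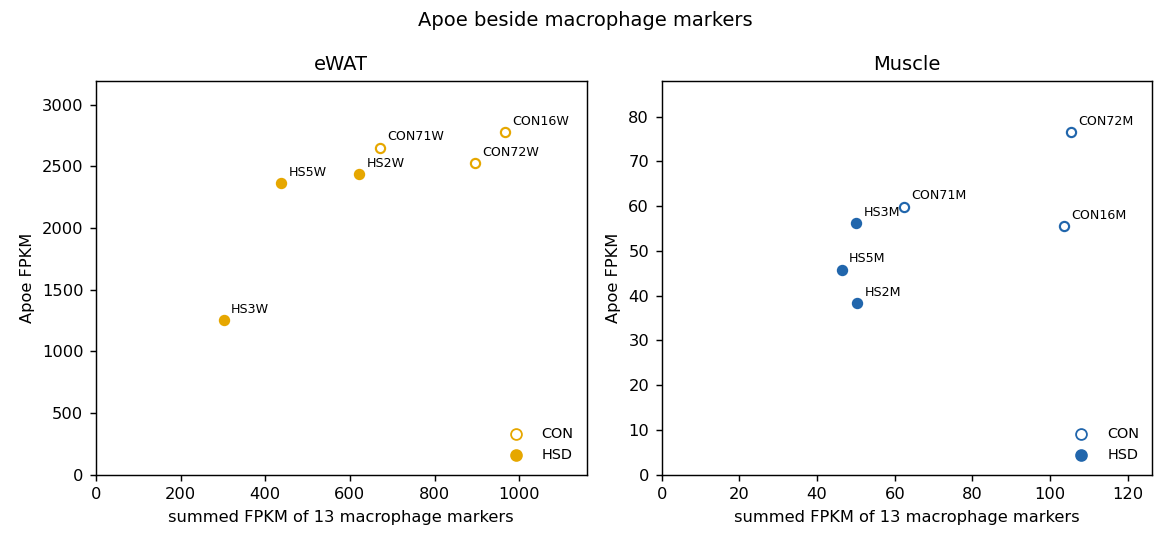
FPKM of *Apoe* against the summed FPKM of 13 macrophage markers in the eWAT and muscle libraries, with CON and HSD marked. In both tissues the HSD libraries have macrophage sums under those of the CON libraries, and *Apoe* is lowest in eWAT HSD replicate 2 and in muscle HSD replicate 1.

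In liver no member was called, and none of the 10317 genes tested was (0%), with 592 at an unadjusted p under 0.05 by limma and 527 by voom. The median log2 difference of the 10 genes was 0.60, against 0.13 over all genes. *Apoa5* was at 115, 82.7 and 120 FPKM in CON (mean 106 ± 20.3, SD, n = 3) and at 247, 170 and 192 FPKM in HSD (203 ± 39.8, SD, n = 3). It was the only member whose groups did not overlap, and each HSD library was above each CON library for 8.62% of all genes tested. Its log2 difference was 0.93 (SE 0.38, unadjusted p = 0.0418, adjusted p = 0.764 by limma). *Apom* was at 13.2, 34.5 and 22.0 FPKM in CON and at 77.4, 85.8 and 27.02 FPKM in HSD, and HSD replicate 3 lay within the CON range (log2 1.37, SE 0.56, unadjusted p = 0.0427, adjusted p = 0.764 by limma). *Apob* was at 55.7, 106 and 92.5 FPKM in CON and at 203, 260 and 99.3 FPKM in HSD, again with HSD replicate 3 among the CON libraries (log2 1.08, SE 0.50, adjusted p = 0.764). No member was called with any 1 liver library left out. Without CON replicate 1 the log2 difference was 1.003 for *Apoa5*, 1.02 for *Apom* and 0.81 for *Apob*, and without CON replicate 2 it was 0.77, 1.70 and 1.27.

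The highest members spread widely within each diet. *Apoa1* was at 5512, 19417 and 12703 FPKM in CON and at 10505, 11197 and 6395 FPKM in HSD (log2 -0.28, SE 0.61), and the difference was -0.79 without CON replicate 1 and 0.12 without CON replicate 2. *Apoa2* was at 4462, 17491 and 18039 FPKM in CON and at 24797.5, 24857 and 11891 FPKM in HSD (log2 0.79, SE 0.70, and 0.13 without CON replicate 1). *Apoe* was at 1517, 9505 and 8012 FPKM in CON and at 12439.6, 14907 and 4649.6 FPKM in HSD (log2 0.97, SE 0.84, and 0.13 without CON replicate 1). For *Apoa2* and *Apoe* the lowest CON and the lowest HSD library were the same for both genes, CON replicate 1 and HSD replicate 3. *Apoc1*, at 2806 to 6312 FPKM in CON and 4835 to 7045 FPKM in HSD (log2 0.41, SE 0.51, and 0.056 without CON replicate 1), had its lowest values in the same libraries. So did *Apoc3*, at 1393 to 3554 FPKM in CON and 2502 to 3128 FPKM in HSD (log2 0.23, SE 0.51, and -0.15 with quantile normalization), and its difference was -0.17 without CON replicate 1. *Apoc2* was at 6.13, 5.61 and 7.53 FPKM in CON and at 3.78, 3.79 and 6.76 FPKM in HSD (log2 -0.43, SE 0.29), and HSD replicate 3 lay within the CON range. *Apoa4* was at 1.08, 1.37 and 2.41 FPKM in CON and at 3.28, 2.28 and 0.516 FPKM in HSD, and the groups overlapped (log2 0.10, SE 0.50).

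The levels of most members ran with those of the hepatocyte genes of the library, and the mitochondrial share ran the other way. The median level of the 50 hepatocyte genes, as a percent of their mean over the liver libraries, was 34.3%, 95.3% and 89.1% in CON and 154%, 146% and 69.2% in HSD, and 48 of the 50 had a higher mean in HSD (median log2 0.83). The mitochondrially encoded genes took 60.8%, 25.7% and 37.8% of the fragments in CON and 16.3%, 15.4% and 44.4% in HSD, lowest in the 2 libraries with the highest hepatocyte level. The part of either in the liver values was not tested. When the liver values were divided by this level, an alternative added after the data were seen, the ratio of the highest to the lowest library narrowed for 8 of the 10 genes. It went from 9.82 to 2.31 for *Apoe*, from 5.57 to 1.56 for *Apoa2* and from 4.67 to 1.72 for *Apob*, but from 2.99 to 3.86 for *Apoa5* and from 1.99 to 7.29 for *Apoc2*. On that scale *Apoa1* was at 16062, 20382 and 14250.3 FPKM in CON and at 6814, 7664 and 9243 FPKM in HSD (log2 -1.09, SE 0.27, adjusted p = 0.654 by limma). *Apom* was at 38.5, 36.2 and 24.7 FPKM in CON and at 50.2, 58.7 and 39.1 FPKM in HSD. No member was called on that scale, nor was any of the 10832 genes tested. The median of all genes on that scale was -0.54, and the difference of *Apoa2* was -0.01.

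**Figure D5:**
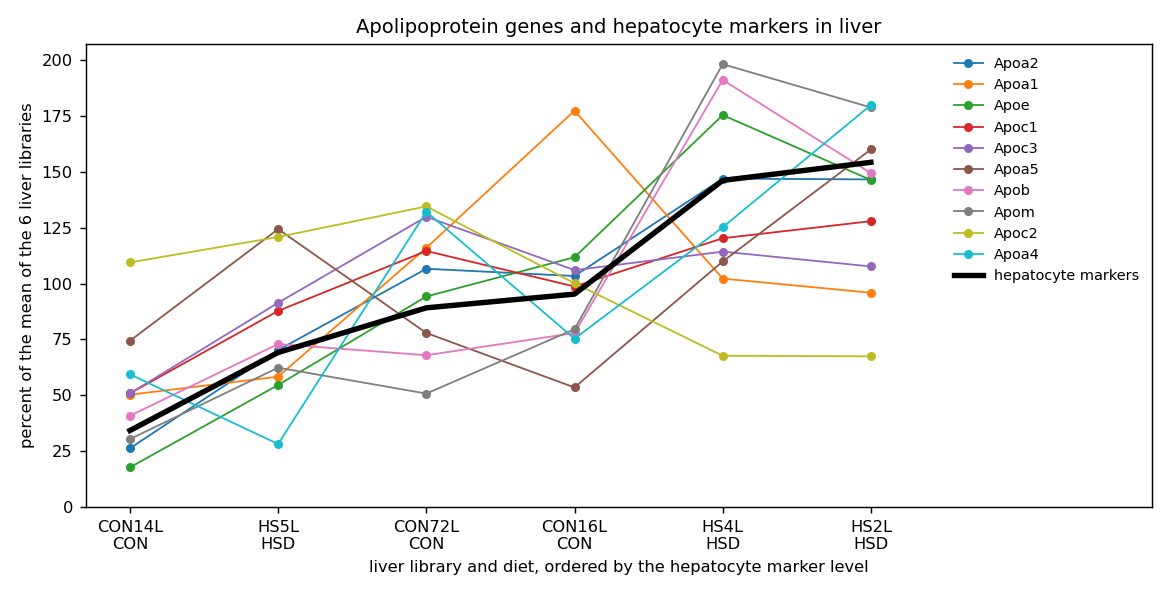
Level of each gene in the 6 liver libraries as a percent of its liver mean, with libraries ordered by the median level of the 50 hepatocyte genes (line, 34.3% to 154%). *Apoe*, *Apoa2*, *Apob* and *Apom* rise with the line, and *Apoc2* is lowest in the libraries where the line is highest.

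The diet difference itself was then compared between tissues in a limma model of all 18 libraries. Between eWAT and liver, 4 of the 10 genes were called, all lower in eWAT, against 0.689% of the 13067 genes tested. The differences of log2 differences were -4.27 for *Apoa1* (SE 0.88, adjusted p = 0.0364), -2.37 for *Apoa5* (SE 0.36, adjusted p = 0.00534), -2.31 for *Apob* (SE 0.45, adjusted p = 0.0278) and -2.65 for *Apom* (SE 0.52, adjusted p = 0.0278). *Apob* was too low for the test in eWAT alone, with 4 to 14 fragments in an HSD library, and entered this model through its liver level. *Apom* had 1 to 3 fragments in an HSD eWAT library, and *Apoa5* had 0 to 5. The model takes 1 spread for each gene from all 18 libraries. These include muscle, where *Apoa5*, *Apob* and *Apom* were at 0 to 4, 0 to 23 and 0 to 1 fragments. The SE of *Apoa5* was 0.36 here, against 0.38 in liver alone and 0.41 in eWAT alone. Those of *Apob* and *Apom* in liver alone were 0.50 and 0.56. The adjusted p of these 3 genes may therefore be too small, which was not tested. The separate values, which this contrast joins, were -1.43 in eWAT and 0.93 in liver for *Apoa5*. They were -4.55 and -0.28 for *Apoa1* and -1.28 and 1.37 for *Apom*, and *Apob* was at 1.08 in liver. None of these separate values was called. *Apoa2* (-4.95, adjusted p = 0.0529) and *Apoc3* (-2.78, adjusted p = 0.0511) just missed the threshold, and *Apoe* (-1.42, SE 0.83, adjusted p = 0.452) and *Apoc1* (-1.05, SE 0.64, adjusted p = 0.461) were not called. The count of called members was 1 without liver CON replicate 1, liver HSD replicate 1 or 2, or eWAT CON replicate 1 or 2, and that gene was *Apoa5* each time. The same held with median-ratio scaling. It was 2 without eWAT HSD replicate 1. No member was called between muscle and liver, where 0.0612% of all genes were, or between muscle and eWAT (0% of all genes), with 3 and 6 members at an unadjusted p under 0.05 by limma. Without eWAT HSD replicate 3, *Apoa1* was called between muscle and eWAT.

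The other genes of lipoprotein metabolism were described by 53 genes in 6 lists. In liver 49 were tested and 0 were called by limma, with 7 at an unadjusted p under 0.05. All 14 regulators of apolipoprotein genes had a higher mean in HSD liver (median log2 0.61 against 0.13 over all genes). So did 6473 of all 10317 genes tested and 48 of the 50 hepatocyte genes (median log2 0.83). Of the 53 genes, the 3 with the smallest p were *Nr5a2*, a nuclear receptor of hepatocytes (log2 0.77, adjusted p = 0.764), *Lsr*, a lipoprotein receptor (log2 0.77), and *Scarb1*, the HDL receptor (log2 1.04). The other 8 apolipoproteins tested in liver also had a higher mean in HSD (median log2 0.77), and the lists of assembly (5 of 6 higher), plasma lipases (5 of 10), receptors (6 of 8) and cholesterol efflux (1 of 3) were mixed.

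In eWAT 40 of the 53 genes were tested and 0 called, with 5 at an unadjusted p under 0.05 by limma. Those with the smallest p were *Apoh* (log2 -2.16, adjusted p = 0.152) and *Apof* (log2 -1.40, adjusted p = 0.157), apolipoproteins of plasma. The median of the 40 genes was -0.12, and 2 of 4 other apolipoproteins, 6 of 10 plasma lipases and remodelling proteins, 3 of 5 assembly genes, 4 of 8 receptors, 2 of 2 efflux genes and 6 of 11 regulators were lower in HSD.

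In muscle 29 were tested, 9 had an unadjusted p under 0.05 and 1 was called by limma. *Pltp*, the phospholipid transfer protein that remodels HDL, was at 4.67 ± 0.101 FPKM in CON and 1.91 ± 0.422 FPKM in HSD (SD, n = 3; limma log2 -1.12, SE 0.14, adjusted p = 0.0157). The next gene by p was the receptor *Vldlr* (log2 0.66, adjusted p = 0.0847).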

How the data were processed

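Per the labels, TRIzol RNA was freed of rRNA, and 18 stranded libraries were read as pairs on a NovaSeq. By the methods of the paper, the authors trimmed (cutadapt), aligned to mm10 (hisat2) and computed FPKM by cuffdiff on Ensembl genes. The submitters' processing notes name HISAT2, HTSeq 0.9.1, mm9 and mm10, and which counter made the deposited FPKM is not settled. Values were whole fragments, within 0.05, for 97.5% of 18822 genes above 0, and fragments were recovered from them with the library totals, which set the depth.

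Diet was tested in each tissue alone by limma 3.58.1 (R 4.3.3) on log2(FPKM + 0.5), with genes under a mean of 0.5 FPKM left out and with eBayes and trend. Differences between tissues used all 18 libraries in 6 groups. A call needed a Benjamini-Hochberg adjusted p under 0.05 over all genes tested and an absolute log2 difference of at least 1. Tests were 2-sided, and scripts were tested on simulated data. The members, lists, markers and tests were chosen with earlier results of these data known. All 10 members were named, with lists as counts, genes called, the 3 smallest p a tissue and the 3 nearest genes a member, of which some are not reported here. The alternatives were the pseudocount, filter, scaling, weights, trend, threshold, blocks, voom, share definitions, the libraries of the study's quality table and each library left out, and 2 were added after the data were seen. CON and HSD libraries shared only replicate numbers, which pair no animals. The r of same-numbered deviations was 0.383, 0.177 and 0.184 in muscle. It was -0.473, 0.395 and -0.213 in liver and -0.197, 0.0608 and 0.414 in eWAT.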

Additional observations from a re-analysis of the deposited data

Results flagged for a closer look

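The diet difference in eWAT differed from that in liver by the interaction test of limma for 4 of the 10 genes, against 0.689% of all genes called in that direction. The difference of the log2 differences, eWAT minus liver, was -4.27 for *Apoa1*, -2.37 for *Apoa5*, -2.31 for *Apob* and -2.65 for *Apom*. *Apoa1*, *Apob* and *Apom* lost the call with median-ratio scaling and when any of 5 libraries was left out (liver CON replicate 1, liver HSD replicates 1 and 2, eWAT CON replicates 1 and 2). All 4 genes, *Apoa5* included, lost it with arrayWeights. Over all alternatives, 32 results of these 4 genes lost the call and 84 kept it. *Apoa5*, *Apob* and *Apom* rest on 0 to 5, 4 to 14 and 1 to 3 fragments in an HSD eWAT library. Their spread was pooled with that of muscle libraries, where they were at 0 to 4, 0 to 23 and 0 to 1 fragments. *Apob* was too low for the test in eWAT alone and entered this model through its liver level. In eWAT the liver share fell beside them, from 0.372% or more in CON to 0.0645% or less in HSD, and in liver the median level of the hepatocyte genes ran from 34.3% to 154%. The part of either in these differences was not tested.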

How the results depend on the processing

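The count of called members moved in these settings. In liver it was 3 with arrayWeights (8.98% of all genes called), and in eWAT 4 with arrayWeights (1.6%), 4 with all 18 libraries in 1 fit (1.23%) and 0 to 3 with a library left out. For eWAT minus liver it was 1 with median-ratio scaling (0.34%), 0 with arrayWeights (0.0383%) and 1 to 6 with a library left out, and for muscle minus eWAT it was 1 with quantile normalization (0.0384%), 6 with arrayWeights (2.77%) and 0 to 1 with a library left out. The arrayWeights estimate stopped before it converged in liver and over all 18 libraries. Above 4 times the share in all 6 eWAT libraries there was 1 member, *Apoe*. The share difference in muscle was -1.73 to 0.68 with a library left out.

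Directions turned for uncalled values. In liver, *Apoc3* was -0.15 with quantile normalization, -0.15 without mitochondrially encoded genes, -0.23 with arrayWeights and -0.58 over the hepatocyte level. *Apoa4* was -0.25 without mitochondrially encoded genes and -0.58 over the hepatocyte level. Over the hepatocyte level, *Apoa2* was -0.013 and *Apoc1* -0.40. *Apoa1* was 0.37 in the libraries of the study's quality table. In muscle, *Apoa1* was -0.0064 and *Apoc1* -0.00040 with a pseudocount of 1, *Apoa1* was -0.026 with arrayWeights and *Apoa2* 0.071 with voom. With a library left out, *Apoa1* ranged from -0.79 to 0.12, *Apoa4* from -0.29 to 0.66 and *Apoc3* from -0.17 to 0.50 in liver, and *Apoa1* from -0.62 to 0.55, *Apoa2* from -1.13 to 0.39 and *Apoc1* from -0.56 to 0.51 in muscle. *Apoe* in CON eWAT against liver was 0.54 with quantile normalization. The cause was not tested. The median of all genes went from 0.13 to -0.20 in liver without mitochondrially encoded genes, and from 1.33 to 0.01 in CON eWAT against liver with median-ratio scaling.

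The replicate block left 0 members called in each tissue, and the correlations of same-numbered libraries had both signs in liver and in eWAT. The animal as a random block changed no count of members. Precision is limited by depth for *Apom*, *Apoa5*, *Apob* and *Apoa4* outside liver and for *Apoa4* and *Apoc2* in liver, with 8 to 62 fragments a library there.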
